A study of Mus musculus with 6 samples.

Results

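The insulin-like growth factor system was followed through 10 of the 24935 genes of the deposited hippocampal table, chosen by their gene names. They are the growth factor genes Igf1 and Igf2, the noncoding neighbour of Igf2, H19, the receptor genes Igf1r, Igf2r and Insr, and the binding protein genes Igfbp2, Igfbp3, Igfbp4 and Igfbp5. RNA came from the left hippocampus of C57BL/6 mouse pups at postnatal day 14, 1 library per animal. Air-exposed mice (n = 3) stayed in room air, and hyperoxia-exposed mice (n = 3) were kept in 85% oxygen at normal pressure from postnatal day 2 to 14, each litter together with its dam. No allele and no other treatment is named for either group. Pups of both sexes were exposed and the sex of each library is not stated, and whether the 3 animals of a group were littermates is not stated either. Libraries carry the numbers 1 to 3 of their deposited columns, which are not animal numbers. Every direction below follows the group named in those columns. With no gene targeted in the study, no gene checks those names, and the sources used here do not all describe the direction of mRNA changes alike. Were the group names of the columns exchanged, every sign below would turn.

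IGF1 and IGF2 are secreted peptides that drive growth and survival of neurons and glia through the tyrosine kinase receptors encoded by Igf1r and Insr. The receptor encoded by Igf2r mainly takes up IGF2 for degradation in lysosomes, and the binding proteins hold the peptides in the extracellular space and limit or prolong their access to receptors. Igf2 and H19 are imprinted in a shared domain, with Igf2 active mainly from the paternal chromosome and H19 from the maternal one. In the postnatal brain, IGF1 comes from neurons, microglia and other cells, and much of the Igf2 mRNA is made in the meninges, the choroid plexus and blood vessels.

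Gene positions are those of GENCODE release M21 (mouse, GRCm38). Igf2 (ENSMUSG00000048583.16) lies at chr7:142650766-142666816 and H19 (ENSMUSG00000000031.15) at chr7:142575529-142578143, both on the minus strand and 72.6 kb apart. H19 carries a microRNA gene, Mir675, within an exon, and Igf2 carries Mir483 within an intron. The mature microRNAs are shown because they are the sequences that these transcripts release, with RefSeq sequences on GRCm38.p6, 5′ to 3′, and with the seed (bases 2 to 8) in capitals.
mmu-miR-675-3p, chr7:142577078-142577099, minus strand: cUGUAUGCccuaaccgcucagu
mmu-miR-675-5p, chr7:142577112-142577133, minus strand: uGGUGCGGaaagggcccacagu
mmu-miR-483-3p, chr7:142654932-142654952, minus strand: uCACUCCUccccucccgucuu
mmu-miR-483-5p, chr7:142654968-142654989, minus strand: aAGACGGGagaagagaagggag
No seed is shared among them. The mRNA sequencing did not measure these mature microRNAs, and neither Mir675 nor Mir483 has a value here. The complement of the miR-675-3p seed, GCATACA, occurred at 2 places in the 3′ untranslated region of Igf1r and at 1 place in that of Insr, and in no other of the 9 coding members. The first place in Igf1r reads tcatcaccccGCATACAcctgcctgac, with the matching bases in capitals. For the miR-483-3p seed, AGGAGTG was found once each in Igf1, Igf2, Igfbp3 and Igfbp5. Over 14834 genes, 9.06% held a match to the miR-675-3p seed and 13.6% one to the miR-483-3p seed, and a match is a description of the letters only.

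The sequences before the start sites of Igf1, Igf2, Igfbp2 and Igfbp4 are shown because these are the called growth factor and binding protein genes. They are the 250 bases upstream, from RefSeq on GRCm38.p6, 5′ to 3′ along the gene's strand, with capitals for 3 motifs, searched on both strands, none of which overlapped another in these windows. These were the GC box with the letters GGGCGG, the TATA box with the letters TATAAA, and the box named CCAAT after its letters. For Igf2, with 4 windows, the one closest to the coding exons is given, and for Igfbp2 the first of 2.
Igf1, chr10:87860861-87861110, plus strand: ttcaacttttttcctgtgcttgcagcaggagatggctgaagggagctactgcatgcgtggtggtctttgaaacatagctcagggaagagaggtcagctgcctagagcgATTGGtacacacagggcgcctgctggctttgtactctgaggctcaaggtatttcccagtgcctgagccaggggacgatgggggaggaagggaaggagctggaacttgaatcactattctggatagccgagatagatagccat
Igf2, chr7:142657497-142657746, minus strand: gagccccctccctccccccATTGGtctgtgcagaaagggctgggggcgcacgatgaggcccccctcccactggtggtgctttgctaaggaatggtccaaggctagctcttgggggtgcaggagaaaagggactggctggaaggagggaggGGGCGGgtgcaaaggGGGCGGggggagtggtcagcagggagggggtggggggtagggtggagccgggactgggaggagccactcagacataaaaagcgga
Igfbp2, chr1:72824230-72824479, plus strand: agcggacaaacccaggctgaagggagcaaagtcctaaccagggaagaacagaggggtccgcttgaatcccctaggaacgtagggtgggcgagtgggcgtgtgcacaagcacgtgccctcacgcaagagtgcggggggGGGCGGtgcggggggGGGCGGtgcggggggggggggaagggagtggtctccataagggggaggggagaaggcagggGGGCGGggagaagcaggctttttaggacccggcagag
Igfbp4, chr11:99040994-99041243, plus strand: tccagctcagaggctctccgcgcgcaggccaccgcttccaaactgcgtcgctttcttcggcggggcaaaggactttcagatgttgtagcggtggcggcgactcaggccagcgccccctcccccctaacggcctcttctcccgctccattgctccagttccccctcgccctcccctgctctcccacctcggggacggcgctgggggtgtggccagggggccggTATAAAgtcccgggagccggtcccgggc
The windows shown for Igf2 and Igfbp2 held 2 and 3 GC boxes, that of Igfbp4 held a TATA box, and those of Igf1 and Igf2 held 1 CCAAT box each. The Igf2 windows not shown held 0, 0 and 1 GC boxes, and the Igfbp2 window not shown held 0. Among 32851 windows of the same length, 32.7% held a GC box, 12.4% a TATA box and 33.9% a CCAAT box, on either strand. The GC content of the windows shown was 52.8% in Igf1, 66.0% in Igf2, 67.2% in Igfbp2 and 69.2% in Igfbp4, against a median of 52.4% over all windows. In the windows not shown it was 50.8%, 47.6% and 68.8% for Igf2 and 56.4% for Igfbp2. Insr and H19 had no entry.

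The unit is the normalized count, which is a library's read count divided by 1 size factor for that library. Hyperoxia and air were compared with limma on log2 of this value plus 1, over the 17778 genes whose mean reached 10, and a gene was called at a Benjamini-Hochberg adjusted p under 0.05. The log2 fold changes are hyperoxia minus air. Reads on genes ranged from 30384052 to 38746972 per library, and replicate libraries were not repeats of each other (chi-square per gene of 6.54 to 47.2). Markers of hippocampal cells were present, with summed normalized counts of at least 13826 for dentate granule cells and 69643 for CA3 pyramidal cells in each library. Hyperoxia library 3 stood apart in choroid plexus markers, with a Ttr count of 7454 against 350.0 and 183 in hyperoxia libraries 1 and 2. Hyperoxia library 2 stood apart from the other hyperoxia libraries across genes, and without it 7756 genes were called in place of 5425.

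All 10 members passed the filter. Of these, 5 were called, 4 of them (Igfbp2, Igf1, Igf2 and Igf1r) higher and 1 (Igfbp4) lower in hyperoxia-exposed mice. Among all genes tested 30.5% were called, 14.9% as higher and 15.6% as lower. In 6 members the air and hyperoxia libraries did not overlap, 5 of them higher in hyperoxia. Of all genes tested, 46.1% had groups that did not overlap, 22.3% with hyperoxia higher. The median log2 fold change of the 10 members was 0.36, against -0.01 for all genes tested. That median depends on the processing. A correction for transcript length and GC content lowered the changes of Igf1, Igf1r, Igf2r, Insr and Igfbp5 and raised those of H19, Igfbp2 and Igfbp3. In bulk tissue, fewer cells of a type and less RNA per cell cannot be told apart, nor more of either.

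**Figure D1:**
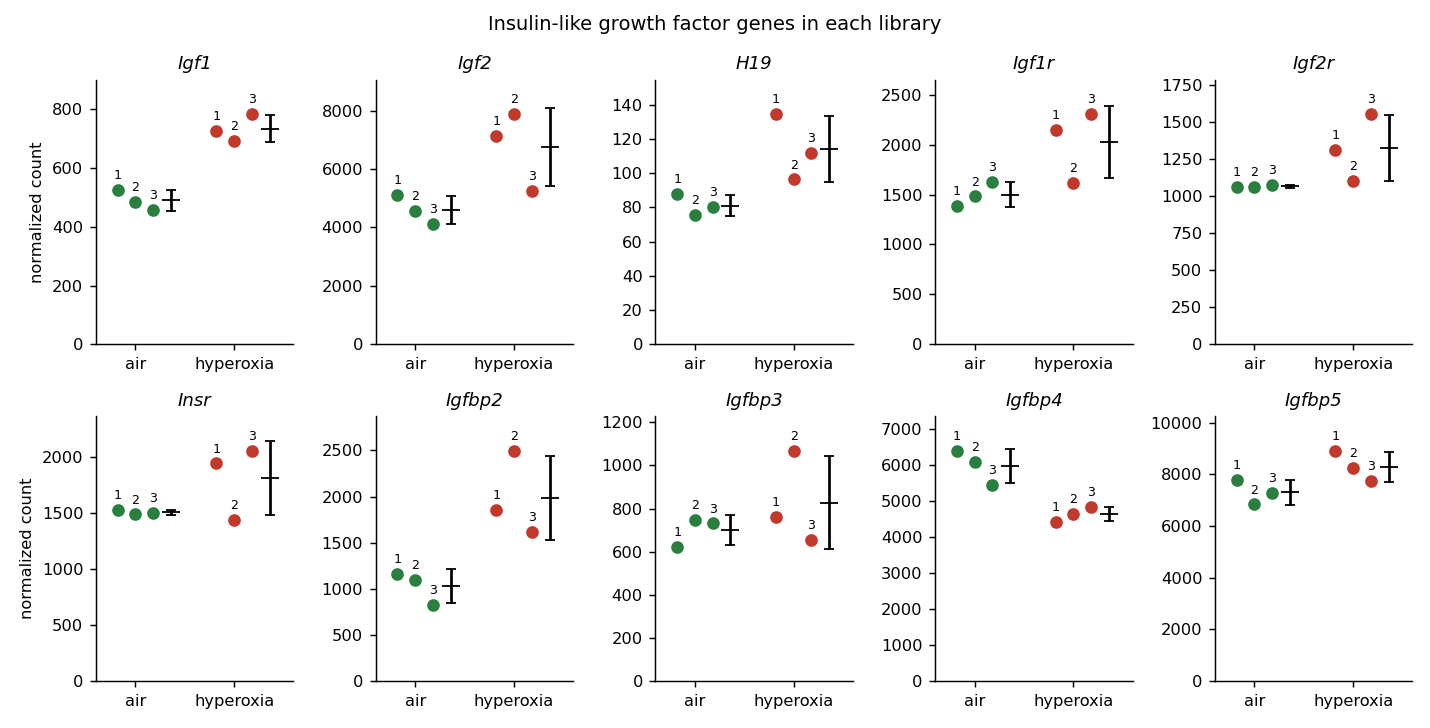
Normalized count (y axis, linear from 0) of each of the 10 genes in 3 air and 3 hyperoxia libraries, with points numbered as the deposited columns and the mean with its SD in black to their right. The groups do not overlap in Igf1, Igf2, H19, Igf2r, Igfbp2 and Igfbp4, and Igfbp4 alone is lower in hyperoxia among these 6.

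Igf1, the gene of the main postnatal growth factor of the family, was higher after hyperoxia. Igf1 (ENSMUSG00000020053.18, chr10:87858265-87937042, plus strand) had normalized counts of 526, 485 and 458 in air (libraries 1, 2 and 3, the order used throughout) and of 726, 693 and 784 in hyperoxia. The lowest hyperoxia library was above the highest air library, and the libraries of each group lay close together. Group means were 489.9 ± 34.5 (SD, n = 3) and 734 ± 46.0 (SD, n = 3), and the log2 fold change was 0.58 (standard error, SE, of 0.09, limma adjusted p = 0.0021). With each library left out in turn the change stayed between 0.53 and 0.64 and kept its call. The call was lost under the correction for transcript length and GC content, where the change was 0.24 (limma adjusted p = 0.080, within a range of 3.1e-06 to 0.080 over 16 alternatives).

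Igf2, the fetal growth factor gene that stays active in the coverings of the brain, was also higher. It had 5113, 4552 and 4129 normalized counts in air and 7123, 7875 and 5263 in hyperoxia. No library of 1 group reached the other group, and hyperoxia library 3 lay just above the highest air library, and the hyperoxia group spread more widely (6754 ± 1345, SD, n = 3) than the air group (4598 ± 493, SD, n = 3). Hyperoxia minus air gave a log2 fold change of 0.54 (SE 0.14, limma adjusted p = 0.018). This call was lost without air library 2 (0.54, limma adjusted p = 0.066), without air library 3 (0.46, 0.074), without hyperoxia library 1 (0.49, 0.070) and in limma without the mean-variance trend (0.068), within a range of 6.0e-04 to 0.074. Of the Igf2 exon bases, 62.8% are shared with Gm49394 on the same strand, a read-through gene model with no value here, and 98 bases with the antisense gene Igf2os, whose mean normalized count was 17.3.

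H19, a noncoding RNA of the same imprinted domain, had 87.6, 75.3 and 80.1 normalized counts in air and 134, 96.2 and 112 in hyperoxia. The groups did not overlap, with hyperoxia library 2 closest to the air libraries. The log2 fold change of 0.48 (SE 0.16, limma adjusted p = 0.052) was not called. H19 had 74 to 152 reads per library, for which counting alone gives a coefficient of variation of up to 11.6%. The gene was called by edgeR's quasi-likelihood test on the recovered reads (0.50, adjusted p = 0.0497), with a mean of at least 50 required (0.48, 0.049), under the length and GC correction (0.61, 0.024) and without hyperoxia library 2 (0.60, 0.013), within a range of 0.013 to 0.19 over 16 alternatives.

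The ratio of Igf2 to H19 within a library was 58.4, 60.4 and 51.6 in air and 53.0, 81.8 and 47.0 in hyperoxia. Hyperoxia library 2 was the highest of the 6 and hyperoxia library 3 the lowest, so the air values lay within the hyperoxia range. The difference of 0.06 on the log2 scale did not pass an exact two-sided permutation test (p = 0.9, where 0.1 is the smallest that 3 against 3 can give). Its sign turned without air library 3 (-0.01), without hyperoxia library 2 (-0.18) and under the length and GC correction (-0.07).

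The genes beside Igf2 and H19 were not called. Mrpl23, a mitochondrial ribosomal protein gene 110 kb from Igf2, had a log2 fold change of 0.11 (limma adjusted p = 0.49). Lsp1, a leukocyte actin-binding protein gene, had 0.29 (0.33) and Tnnt3, a skeletal muscle troponin gene, 0.66 (0.19), the latter at 7.53 to 22.6 normalized counts. Ins2, an insulin gene 11.8 kb from Igf2, and the noncoding gene Nctc1 were at 0 to 5.79 and 0 to 3.77 normalized counts and were not tested.

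The receptor genes had more spread among hyperoxia libraries than among air libraries. Igf1r (ENSMUSG00000005533.10, chr7:67952827-68233668, plus strand), the receptor through which both growth factors signal, had 1388, 1483 and 1630.3 normalized counts in air and 2148, 1617 and 2306 in hyperoxia. Hyperoxia libraries 1 and 3 were above every air library, whereas library 2 lay below air library 3, so the groups overlapped. On the log2 scale the change was 0.42 (SE 0.13, limma adjusted p = 0.034). This call was lost when any of air libraries 1, 2 and 3 or of hyperoxia libraries 1 and 3 was left out (changes of 0.32 to 0.48, limma adjusted p up to 0.13), in limma without the trend (0.095) and under the length and GC correction (0.13, 0.15). Without hyperoxia library 2 the change was 0.57 (limma adjusted p = 3.1e-04, within a range of 3.1e-04 to 0.15 over 16 alternatives).

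Igf2r (ENSMUSG00000023830.13, chr17:12682406-12769664, minus strand), the clearance receptor for IGF2, had 1061, 1060.3 and 1075 normalized counts in air and 1312, 1105 and 1553 in hyperoxia. The air libraries had a coefficient of variation of 0.763% and the hyperoxia libraries one of 16.9%, all of them above air. Its change of 0.30 on the log2 scale (SE 0.11, limma adjusted p = 0.074) did not pass. It was called by DESeq2 (0.32, adjusted p = 0.036) and without hyperoxia library 2 (0.42, limma adjusted p = 0.0020), within a range of 0.0020 to 0.42 over 16 alternatives. Under the length and GC correction it was 0.08.

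Airn, the imprinted antisense RNA that starts within Igf2r, had a log2 fold change of 1.16 (SE 0.23, limma adjusted p = 0.0051). It had 22.6, 26.5 and 35.9 normalized counts in air and 57.5, 70.2 and 63.7 in hyperoxia, with no overlap. Airn shares no exon base with Igf2r. The libraries were strand-specific, but no source used here states if strand entered the counting.

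Insr (ENSMUSG00000005534.10, chr8:3122061-3279617, minus strand), the insulin receptor gene, had 1526, 1485 and 1497 normalized counts in air and 1940.3, 1438 and 2051 in hyperoxia. Hyperoxia library 2 was the lowest of the 6 and the other hyperoxia libraries were the highest. Its log2 fold change of 0.25 (SE 0.12, limma adjusted p = 0.15) did not pass. Without hyperoxia library 2 it was 0.41 (limma adjusted p = 5.5e-04), and under the length and GC correction it was -0.03 (0.78), within a range of 5.5e-04 to 0.78 over 16 alternatives.

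The ratio of Igf1r to Insr within a library, which does not depend on the size factor, was 0.910, 0.999 and 1.09 in air and 1.11, 1.12 and 1.12 in hyperoxia. All hyperoxia values were above the air values, and hyperoxia library 2 did not depart from the others in this ratio. The difference of 0.17 on the log2 scale gave p = 0.1 in an exact two-sided permutation test, the smallest this design allows, and ranged from 0.10 to 0.23 over fits that left out 1 library.

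Among the binding protein genes, Igfbp2 rose, Igfbp4 fell and the other 2 were not called. Igfbp2 (ENSMUSG00000039323.18, chr1:72824503-72852474, plus strand), a binding protein of the developing brain and the cerebrospinal fluid, had 1162, 1100.0 and 820.3 normalized counts in air and 1853, 2495 and 1618 in hyperoxia. Every hyperoxia library was above every air library, with hyperoxia library 2 the highest. The means were 1027 ± 182 (SD, n = 3) and 1989 ± 454 (SD, n = 3), a log2 fold change of 0.94 (SE 0.17, limma adjusted p = 0.0037) with a 95% interval of 0.56 to 1.32. Each of the 16 alternatives called it, with changes of 0.77 to 1.08 when each library was left out.

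Igfbp4 (ENSMUSG00000017493.12, chr11:99041244-99054392, plus strand), whose protein mainly inhibits IGF action until a protease cleaves it, had 6380.4, 6075 and 5438 normalized counts in air and 4416, 4644 and 4819 in hyperoxia. The hyperoxia libraries were all below the air libraries and close to each other. A log2 fold change of -0.36 was found (SE 0.08, limma adjusted p = 0.0082), with a 95% interval of -0.54 to -0.19. Each of the 16 alternatives called it, with changes of -0.43 to -0.31 when each library was left out.

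Igfbp5 (ENSMUSG00000026185.8, chr1:72857932-72874884, minus strand) lies 5.46 kb from Igfbp2, on the other strand. Its protein binds to the extracellular matrix and modulates IGF action there. It had 7784, 6834 and 7272 normalized counts in air and 8906, 8255 and 7746 in hyperoxia, and hyperoxia library 3 lay below air library 1. The log2 fold change was 0.19 (SE 0.08, limma adjusted p = 0.11, range 0.051 to 0.66 over 16 alternatives).

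Igfbp3 (ENSMUSG00000020427.11, chr11:7206086-7213923, minus strand), the main carrier of IGF1 in blood, had 623, 749 and 731 normalized counts in air and 761, 1068 and 653 in hyperoxia. Hyperoxia library 2 was the highest of the 6 and library 3 lay within the air range. With a log2 fold change of 0.21 (SE 0.16, limma adjusted p = 0.35), it was called under no alternative, with adjusted p from 0.082 to 0.93. Without hyperoxia library 2 the change was 0.01.

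**Figure D2:**
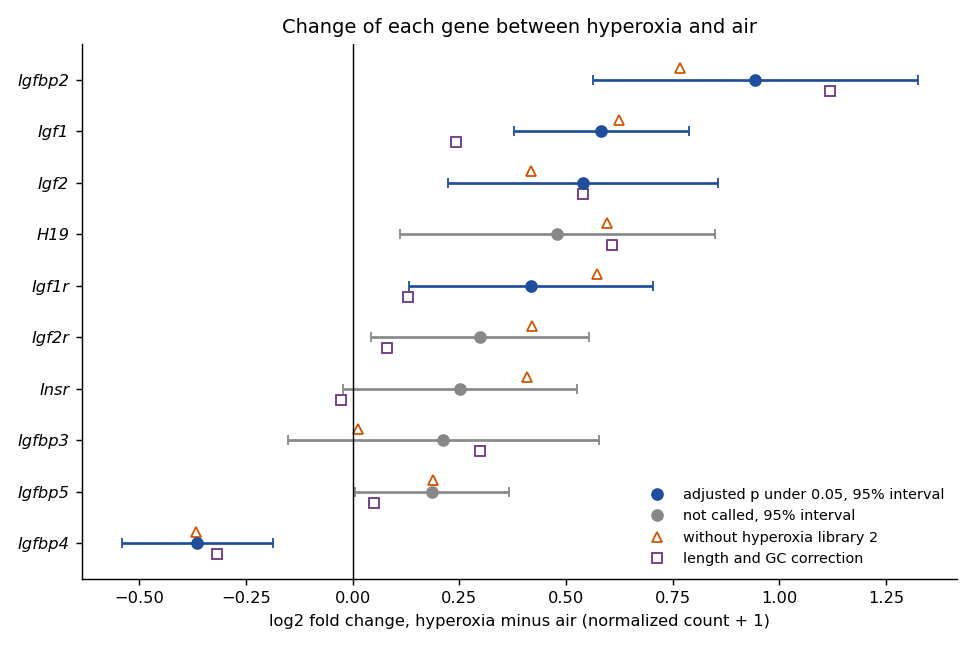
Log2 fold change (x axis, hyperoxia minus air) of each of the 10 genes with its 95% interval from limma, in blue where called and grey where not. Triangles give the change without hyperoxia library 2 and squares the change under the length and GC correction, which is -0.03 for Insr and 0.24 for Igf1.

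To set levels of different genes side by side, normalized counts were divided by the exon length of each gene. In air, the level per kb was highest in Igfbp4 (1351 ± 109, SD, n = 3) and Igfbp5 (1215 ± 79.2), whose libraries overlapped, followed by Igf2 (803 ± 86.2), Igfbp2 (556 ± 98.6) and Igfbp3 (224 ± 21.7). The receptor genes Igf2r, Insr and Igf1r were at 114.5, 109 and 89.4 per kb, Igf1 at 49.5 and H19 at 32.9. Apart from Igfbp4 and Igfbp5, no neighbours in this order overlapped in air. The Igf2 level per kb was far above that of Igf1 in this tissue at postnatal day 14, in air and in hyperoxia.

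In hyperoxia the order per kb at the top was Igfbp5 (1382 ± 96.8, SD, n = 3), Igf2 (1180.1 ± 235), Igfbp2 (1077 ± 246) and Igfbp4 (1048 ± 45.8), and each of these overlapped its neighbour. Igf2r, Insr and Igf1r, at 142, 132 and 121 per kb, overlapped as well. Igf1 followed at 74.1 and H19 at 46.4. As a share of the summed level per kb of the 4 binding protein genes, Igfbp2 went from 17.6%, 17.8% and 14.2% in air to 26.9%, 32.8% and 25.3% in hyperoxia. Igfbp4 went from 40.5%, 41.1% and 39.5% to 26.8%, 25.5% and 31.5%. Neither share overlapped between the groups, while those of Igfbp3 and Igfbp5 did, with means of 6.74% and 6.94% for Igfbp3 and 36.4% and 36.8% for Igfbp5 in air and hyperoxia. The shares rest on the same counts as the tests above and are given as a description.

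**Figure D3:**
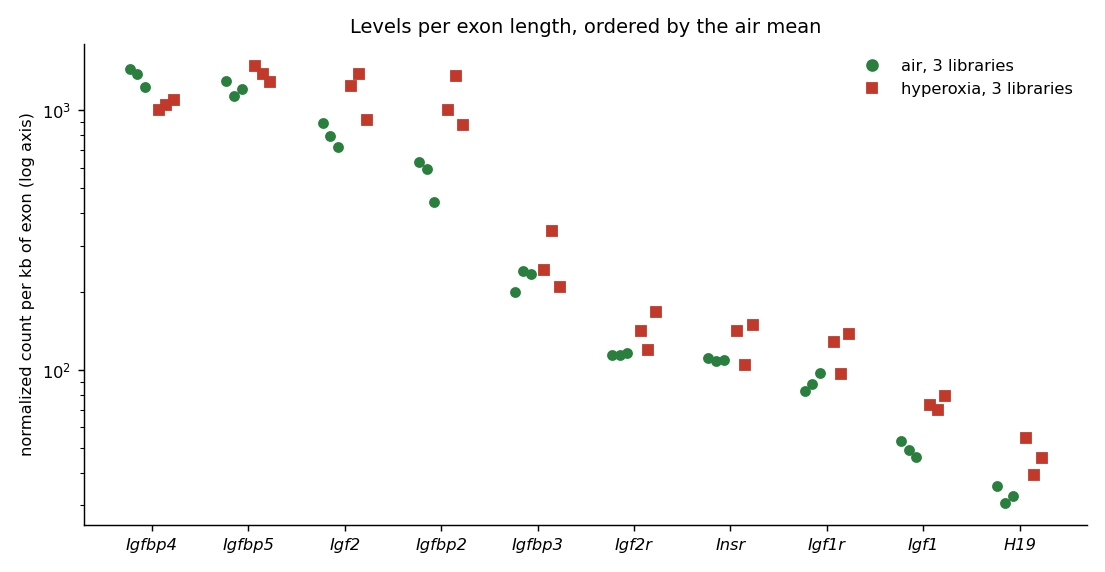
Normalized count per kb of exon (y axis, log scale) of the 10 genes in 3 air libraries (green circles) and 3 hyperoxia libraries (red squares), ordered by the air mean. Igfbp4 leads in air at 1351 per kb and is at 1048 in hyperoxia, within the range of levels of Igf2 and Igfbp2 there.

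Markers of the leptomeninges, where Igf2 and Igfbp2 are strongly expressed, moved in the same direction as these genes. Of 12 leptomeningeal fibroblast markers, 11 were called as higher in hyperoxia and none as lower, against 14.9% and 15.6% of all genes tested. Their median log2 fold change was 0.84, against -0.01 for all genes. Dcn was the marker not called, and Pdgfra of this list also marks oligodendrocyte precursors. The summed normalized count of the list was 8872, 8175 and 7863 in air against 14635, 14836 and 11390.4 in hyperoxia. The defining collagen gene Col1a1 was at 1139 to 1397 in air and at 1539 to 2240.0 in hyperoxia, and no marker of the list was at 0.

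The order of the 6 libraries, from hyperoxia library 2 down to air library 3, was the same in Igf2, in Igfbp2 and in the leptomeningeal sum. No other of the 15 marker lists had that order. In the sum, hyperoxia library 2 (14836) was only just above library 1 (14635). That place rests on the uncalled Dcn, at 1922 in library 2 and 1114 in library 1. Dcn, Col1a2, Col3a1 and Lum were higher in library 2 than in library 1, and the other markers of the list were lower. Per 100 counts of the leptomeningeal sum, Igf2 had 57.6, 55.7 and 52.5 counts in air and 48.7, 53.1 and 46.2 in hyperoxia, so that hyperoxia library 2 lay within the air range and the other 2 below it. Igfbp2 had 13.1, 13.5 and 10.4 in air and 12.7, 16.8 and 14.2 in hyperoxia, again with overlap. The part of leptomeningeal tissue in the Igf2 and Igfbp2 results was not tested.

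The summed count of markers of the choroid plexus, another site of Igf2 expression, had another order of libraries than Igf2. Enpp2 made up most of that sum in the air libraries (3758 to 4733) and in hyperoxia libraries 1 (3599) and 2 (3492). The order is therefore largely that of 1 gene outside hyperoxia library 3. The median log2 fold change of the list was 0.43, against -0.01 for all genes. Of 13 tested, 2 (Prlr and Aqp1) were called as higher and none as lower, a share of 15.4% against 30.5% of all genes tested. The summed count of the list was 4709 to 6469.9 in air and 4618, 4252 and 16216 in hyperoxia. Hyperoxia library 3, with the highest choroid plexus sum, had the lowest Igf2 and Igfbp2 of the hyperoxia libraries. Without that library the Igf2 change was 0.71 (limma adjusted p = 9.0e-04). The part of choroid plexus tissue in the Igf2 and Igfbp2 results was not tested.

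Marker lists of several other cell types and of a neighbouring region differed between the groups in summed normalized count. A sum mostly follows the genes of a list with the highest counts. For comparison, 14.9% of all genes tested were called as higher and 15.6% as lower. Of 12 oligodendrocyte markers 11 were called as lower and none as higher, with sums of 228879 to 347899.9 in air and 156499.7 to 190408 in hyperoxia. Of 9 CA3 pyramidal cell markers 5 were lower and none higher (105419 to 116095 and 69643 to 76400.0), and of 10 dentate granule cell markers 8 were lower and none higher (23105 to 23421 and 13826 to 21153). Of 10 thalamic markers 5 were higher and none lower (5732 to 6141 and 7930.0 to 9802). These sums did not overlap between the groups, nor did those of endothelial markers, with 7 of 12 higher and 2 lower (12670.3 to 13288 and 14425 to 16606), and of Cajal-Retzius cell markers, with 2 of 8 higher and 1 lower (5057 to 5571 and 6401 to 7634). The Cajal-Retzius list had a median log2 fold change of -0.10, below 0 although its sum was higher, and 37.5% of it was called. Reln led that sum, with means of 2330 in air and 3961 in hyperoxia. Astrocyte markers, with 4 of 12 higher and 2 lower (211801 to 222492 and 249931 to 266608), and pericyte and smooth muscle markers, with 2 of 9 higher and none lower (13836 to 14002 and 15042 to 17530.3), had no overlap in their sums either. Their median log2 fold changes were only 0.05 and 0.08, and 22.2% of the pericyte list was called. Slc1a2 had the largest counts of the astrocyte list (means of 104640 in air and 149380 in hyperoxia). Rgs5 had those of the pericyte list (6332 and 8251), so each sum rests largely on 1 gene. Microglial markers had overlapping sums (14804 to 15271 and 15242 to 17651), and 3 of 12 were called, all higher, a share of 25.0% against 30.5% of all genes tested. No marker of these lists was at 0 in every library, and the part of these cell types and of the tissue taken in the Igf1, Igf2, Igf1r, Igfbp2 and Igfbp4 results was not tested either.

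**Figure D4:**
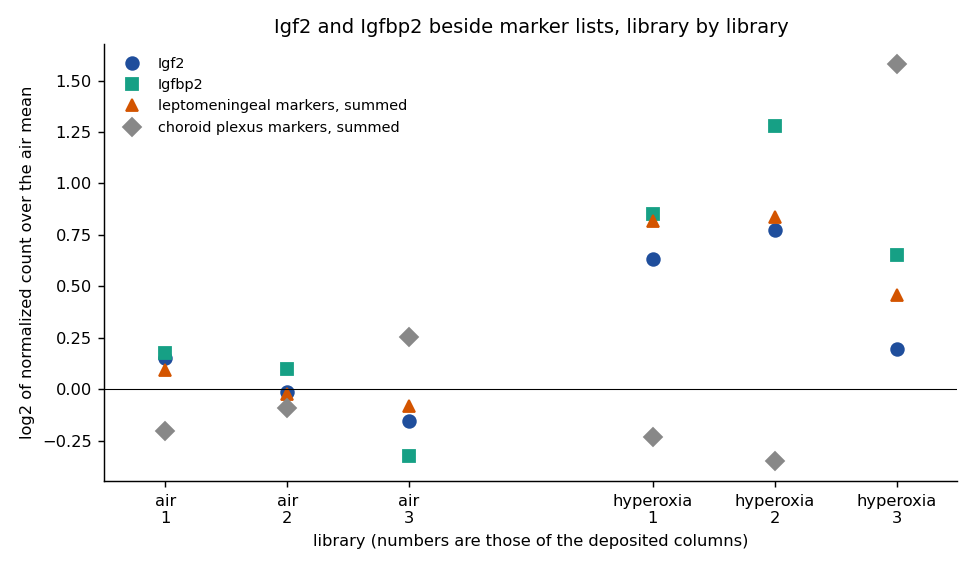
Log2 of the normalized count over the mean of the air libraries (y axis) for Igf2, Igfbp2 and the summed leptomeningeal and choroid plexus markers in each of the 6 libraries (x axis). Igf2, Igfbp2 and the leptomeningeal sum share the order hyperoxia 2, 1, 3 and air 1, 2, 3. The leptomeningeal sum is nearly level in hyperoxia libraries 2 and 1, at 14836 and 14635 counts. The choroid plexus sum is highest in hyperoxia library 3, at 16216 counts.

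Beyond the 10 members, 30 other genes of the axis were listed, of which 24 were tested. The called genes were 5 higher (Grb10, Irs1, Socs2, Igfbp7 and Ide) and 3 lower (Stc2, Grb14 and Sh2b1), and the median log2 fold change of the 24 was 0.14. At 33.3%, the share called was near the 30.5% of all genes tested. Among them, Igfbp7, a secreted protein of vessels with low affinity for IGFs, had a log2 fold change of 0.47 (SE 0.13, limma adjusted p = 0.020), and Ide, an enzyme that degrades insulin, one of 0.41 (SE 0.07, limma adjusted p = 0.0025). Stc2, whose protein inhibits the protease that cleaves IGFBP4, had 498, 444 and 442 normalized counts in air and 238, 256 and 303 in hyperoxia. The groups were well apart, with a log2 fold change of -0.80 (SE 0.12, limma adjusted p = 0.0016). Pappa, the gene of that protease, had 33.9, 45.8 and 42.1 in air and 51.3, 54.3 and 67.6 in hyperoxia, with no overlap and a log2 fold change of 0.50 that did not pass (limma adjusted p = 0.094). Pappa was chosen for this text after its values were seen.

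Adaptors that act inside the cell below the receptors moved in both directions. Grb10, an imprinted gene whose protein binds IGF1R and the insulin receptor and dampens their signal, had 731, 650.2 and 726 normalized counts in air and 1436, 1330.3 and 1146 in hyperoxia. All hyperoxia libraries were above all air libraries, with a log2 fold change of 0.89 (SE 0.10, limma adjusted p = 5.9e-04). Its relative Grb14 went the other way, with -0.34 (SE 0.08, limma adjusted p = 0.010), as did Sh2b1, a receptor adaptor, with -0.27 (0.07, 0.019). Irs1, a docking protein of both receptors, had 349, 346 and 418 in air and 667, 409 and 822 in hyperoxia. Hyperoxia library 2 was within the air range, as in Igf1r, and the change was 0.72 (SE 0.22, limma adjusted p = 0.033). Socs2, a feedback inhibitor of growth hormone signalling, had a change of 0.56 (SE 0.09, limma adjusted p = 0.0026).

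The uncalled genes of this list with the highest counts were Htra1, a secreted protease that cleaves IGF binding proteins, with a log2 fold change of -0.07 (limma adjusted p = 0.51), Irs2 with -0.14 (0.14), the phosphatase gene Ptpn1 with -0.04 (0.69) and Igfbpl1 with -0.33 (0.10). Below the filter and not tested were Igfbp1, Igfals, Ins2, Insrr and Igf2bp1. Igfals, whose product carries IGF1 in blood, had at most 5 reads in a library.

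**Figure D5:**
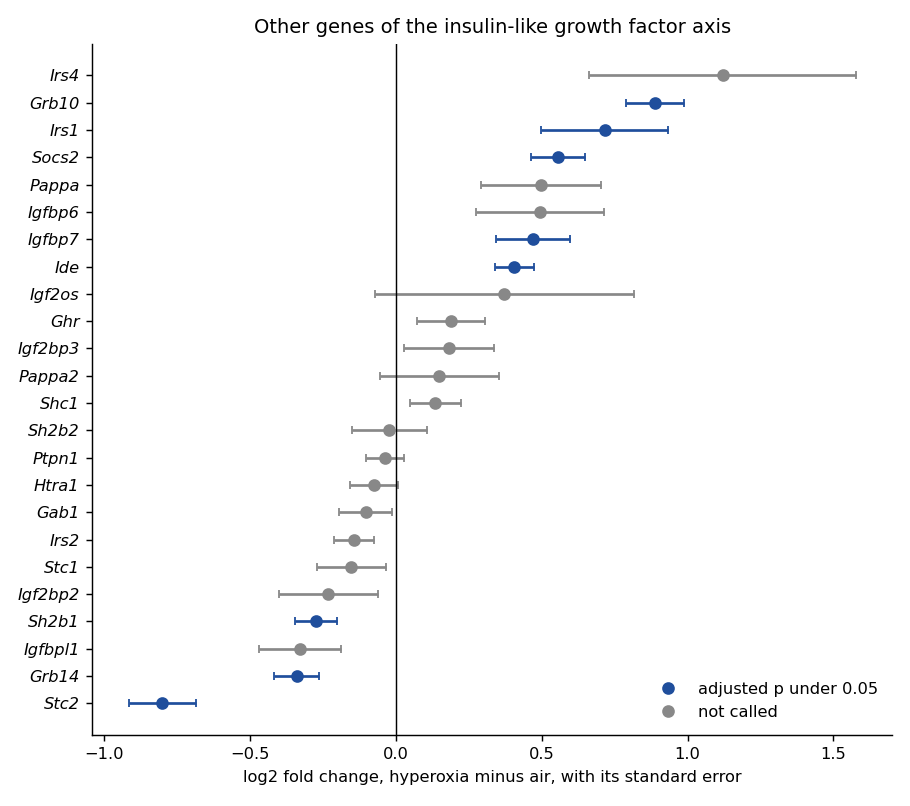
Log2 fold change (x axis, hyperoxia minus air) with its standard error for the 24 tested genes of the axis beyond the 10 members, in blue where called. Of the called genes, Grb10 at 0.89 rose furthest and Stc2 at -0.80 fell furthest.

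The lipid kinase branch downstream of the receptors was listed with 24 genes, all tested. Of these 9 were called as higher and 1 as lower, with a median log2 fold change of 0.19, and 41.7% were called against 30.5% of all genes tested. Foxo3, the gene of a transcription factor that growth factor signalling keeps out of the nucleus, had 1728, 1809 and 1938 normalized counts in air and 3014, 2481 and 2774 in hyperoxia. The groups did not overlap, with hyperoxia library 2 the lowest of its group, and the log2 fold change was 0.59 (SE 0.09, limma adjusted p = 0.0017). Gsk3a, a kinase gene, fell by 0.41 on the log2 scale (SE 0.07, limma adjusted p = 0.0030).

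Among other imprinted genes, listed for the setting of Igf2, H19 and Igf2r, 21 of 22 were tested. Of these 5 were called as higher and 4 as lower, with a median of -0.03, and 42.9% were called against 30.5% of all genes tested. Grb10 is counted both here and in the axis list. Rises were led by Airn, Grb10 and the zinc finger gene Peg3 (0.48, standard error 0.11, limma adjusted p = 0.0091). Falls were led by the noncoding gene Kcnq1ot1 (-0.76, 0.08, 4.0e-04), the splicing factor gene Zrsr1 (-0.69, 0.08, 5.4e-04) and Snrpn (-0.44, 0.08, 0.0030), which encodes a small ribonucleoprotein.

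The genes whose 6 library values were most like those of the growth factor genes were found by Pearson's r of log2 values among 14098 genes with a mean of at least 50. They were Abca7 (r = 0.999), Aacs (0.997) and Aldh1b1 (0.997) for Igf1. For Igf2 they were Abcb9 (0.996), Mrm1 (0.993) and Spire1 (0.993), none of them a leptomeningeal marker of the list. For H19 they were Kansl1 (0.995), Ptprr (0.995) and Cd55 (0.994). These points share the libraries and the difference between the groups, and over 6 libraries the r values are a description only.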

How the data were processed

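The authors deposited a table of normalized counts, a signal in which the reads per gene were divided by 1 size factor per library. FastQC, STAR 2.5.3a, HTSeq and DESeq2 are named in the submitters' processing notes, and their genome build and annotation are not stated in any source used here. The authors' deposited table of their own comparison (mean, log2 fold change, standard error, Wald statistic, p-value and adjusted p-value) was not used. Every value was a whole multiple of 1 read (100% within 0.01), so reads were recovered for the count tests.

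Genes with a mean of at least 10 entered limma 3.58.1 (R 4.3.3) as log2 of the normalized count plus a pseudocount of 1, with its trend option and Benjamini-Hochberg adjustment over 17778 genes. This scale understates changes of low genes. The 16 alternatives were edgeR 4.0.16 (quasi-likelihood) and DESeq2 1.42.0 (Wald) on reads, limma with the trend off, TMM or quantile scaling, pseudocounts of 0.5 or 5, all genes or only means from 50 up, leaving out any 1 library, and a smooth correction for transcript length and GC content (mgcv 1.9.3, 17735 genes). The fits were also run on simulated data, with the same dispersion for every gene and few changed genes. These libraries spread more widely and more of their genes were called, so that run does not measure error rates here. Ratios were tested by exact permutation (scipy 1.17.1). Tables and figures used Python 3.11.15, pandas 2.3.3, numpy 2.4.6 and matplotlib 3.10.9. Exon lengths and positions are from GENCODE release M21 (GRCm38), which held 99.7% of the gene identifiers. Its build may not be the authors'.

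The members and gene lists were chosen with earlier results of these data known. Genes named were the 10 members, all called genes of the axis list with its 4 uncalled genes of highest mean, the 3 largest rises and falls of 2 further lists, the neighbours of Igf2 and H19, and the 3 genes most like Igf1, Igf2 and H19. Some genes under this rule are not reported here. Labels do not state separate litters, so p-values measure the spread between these animals. Counting error was at most 4.74% of the lowest read count in each member other than H19. Single outlying libraries were not tested for, with 3 per group.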

Additional observations from a re-analysis of the deposited data

How the results depend on the processing

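Of 242 results recomputed under an alternative, 211 kept their direction and their side of the threshold or stayed within 1.5 times the count. Igfbp2 and Igfbp4 were called under each of the 16 alternatives, and Igfbp3 and Igfbp5 under none. With 1 library left out, log2 changes ranged over 0.53 to 0.64 for Igf1, 0.42 to 0.71 for Igf2, 0.36 to 0.60 for H19, 0.32 to 0.57 for Igf1r, 0.18 to 0.42 for Igf2r and 0.15 to 0.41 for Insr. The number of called genes ranged over 3048 to 7756 for all genes (5425 with all libraries), 4 to 9 for the axis list (8), 6 to 13 for the lipid kinase branch (10) and 7 to 13 for the imprinted genes (9), and the Igf2 to H19 ratio over -0.18 to 0.22. Counts more than 1.5 times below those with all libraries were 3048 without air library 1, 3087 without air library 2 and 3378 without hyperoxia library 1. For the axis list they were 5 without air library 1 or 3 and 4 without air library 2, and for the kinase branch 6 without air library 2. The length and GC correction gave 0.24 for Igf1, 0.13 for Igf1r, 0.61 for H19, -0.028 for Insr and -0.068 for the Igf2 to H19 ratio. Limma without the trend gave adjusted p of 0.068 for Igf2 (0.54) and 0.095 for Igf1r (0.42), and called 5 genes of the axis list. H19 was called by edgeR (0.50) and with a mean of at least 50 (0.48), and Igf2r by DESeq2 (0.32). Where a call was lost, the cause was not tested. No paired analysis was possible because the groups share no animal numbers and the deposited columns carry none.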
